A study of Mus musculus with 4 samples.

Results

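The genes described here are 31 interferon-stimulated genes, a fixed list taken from 29203 gene columns outside mitochondrial and haemoglobin genes, and all 31 had counts in each of the 4 libraries. They were followed in hearts of C57BL/6 mice: 2 wild-type animals (WT1 and WT2) and 2 Mst1/2-deficient animals (KO1 and KO2). Mst1 and Mst2, encoded by Stk4 and Stk3, are kinases of the Hippo pathway, and the series concerns myocardial infarction. No source used here gives the allele, a Cre driver, the cells in which the genes were deleted, the age or sex of the animals, or any injury or treatment. Slow centrifugation parted each heart into a cardiomyocyte (CM) and a non-cardiomyocyte (NCM) fraction, cells were put into barcoded wells, and polyadenylated RNA was counted with unique molecular identifiers (UMIs), tags that mark single cDNA molecules.

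Interferons are secreted when a cell senses viral or misplaced nucleic acid. Type I interferon binds the receptor Ifnar1/Ifnar2, Jak kinases phosphorylate Stat2, and Stat2 joins Irf9 in a complex that binds the interferon-stimulated response element (ISRE) in target promoters. The induced proteins sense RNA and DNA, cut or modify nucleic acids and nucleotides, block virus entry and release, or feed back on the pathway. In the heart, macrophages, endothelial cells and fibroblasts can all make these proteins.

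Levels are in CPM, which here means UMIs of a gene for every 1000000 UMIs outside mitochondrial and haemoglobin genes, summed over kept wells (at least 10000 UMIs and 300 genes) of 1 animal, and they are not divided by gene length. The NCM fraction had 692, 703, 715 and 747 kept wells of WT1, WT2, KO1 and KO2, and the CM fraction had 210, 274, 264 and 385. The 4 deposited libraries are not the 4 animals: each is a chip that held 1 fraction of both animals of 1 genotype, so neither genotype nor fraction can be told apart from chip. Mitochondrial genes took 7.45 and 11.2% of NCM UMIs in the WT animals and 58.1 and 36.5% in the KO animals, and haemoglobin genes took 1.19 and 3.42% against 4.48 and 12.0%. In the CM fraction the mitochondrial shares were 38.1 and 35.7% against 47.2 and 36.4%. Their part in the results below was not tested. Stk4 stood at 53.1 and 47.3 CPM in NCM wells of the WT animals and at 45.8 and 37.5 in the KO animals, and Stk3 at 23.5 and 38.6 against 29.0 and 26.3; no source used here names the deleted exons, so totals per gene do not check the genotype labels.

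Of the 31 genes, 23 matched an entry in a RefSeq promoter table (build GRCm38.p6) that spans 250 bases before to 50 after each start. An ISRE core, searched as GAAANNGAAA on either strand, lay in 12 of the 29 promoters listed for these 23 genes (41.4%), while 3.44% of all 32851 promoters of the same length held one. The gamma-activated site core, searched as TTCNNNGAA, which reads the same pattern on both strands, lay in 7 of the 29 promoters (24.1%) and in 8.30% of all promoters. The 250 bases before the start are shown for 3 genes. Rsad2 and Cmpk2 are the neighbours on chromosome 12 on which the genotype comparison turns, and Isg15 is a gene with 3 overlapping matches; capitals mark the ISRE core matches.
Rsad2: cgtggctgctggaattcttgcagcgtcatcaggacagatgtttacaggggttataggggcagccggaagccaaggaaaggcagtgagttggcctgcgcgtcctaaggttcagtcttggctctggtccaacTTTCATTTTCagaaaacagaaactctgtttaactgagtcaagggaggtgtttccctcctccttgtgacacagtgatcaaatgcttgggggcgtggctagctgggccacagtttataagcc
Cmpk2: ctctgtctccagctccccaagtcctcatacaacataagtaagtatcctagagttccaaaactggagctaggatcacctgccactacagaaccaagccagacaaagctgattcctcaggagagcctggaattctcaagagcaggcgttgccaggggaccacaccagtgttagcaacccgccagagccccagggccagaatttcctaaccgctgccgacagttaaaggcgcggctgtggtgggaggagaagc
Isg15: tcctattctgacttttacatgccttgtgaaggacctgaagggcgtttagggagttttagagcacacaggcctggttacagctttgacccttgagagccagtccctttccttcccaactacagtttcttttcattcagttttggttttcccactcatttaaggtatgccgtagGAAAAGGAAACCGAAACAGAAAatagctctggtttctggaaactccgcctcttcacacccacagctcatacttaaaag
The Rsad2 stretch is chr12:26456453-26456702 on the minus strand, the Cmpk2 stretch chr12:26468965-26469214 on the plus strand, and the Isg15 stretch chr4:156200819-156201068 on the minus strand. Rsad2 had 1 match, 120 bases before its start, Isg15 had matches at 78, 72 and 66 bases, and Cmpk2 had none of these letters in its window. A match describes letters only. Rsad2 (GRCm38 chromosome 12, 26442746 to 26456452, minus strand) and Cmpk2 (26469204 to 26479837, plus strand) point away from each other with 12751 bases between them. The 31 genes lay on 14 chromosomes, and Ifit1, Ifit2, Ifit3 and Ifit3b all lay between 34550694 and 34650009 on chromosome 19.

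In the NCM fraction, 2 of the 31 genes had a mean level above 1000 CPM, and 23 had a mean below 100. Ifitm3, a membrane protein that keeps viruses from fusing with endosomes, stood at 3960 and 4390 CPM in the WT animals and at 3175 and 4756 in the KO animals. The KO values enclosed the WT values, and 688, 700, 700 and 744 wells held at least 1 Ifitm3 UMI. Ifi27l2a stood at 1963 and 1941 against 709 and 2977, so the animals of the KO genotype lay on opposite sides of the WT animals. Isg20, an exonuclease that degrades RNA, stood at 95.2 and 199.7 against 119.7 and 194.8. Xaf1, which binds the apoptosis inhibitor Xiap, stood at 99.9 and 73.7 against 99.6 and 163.8. The receptor transporter protein Rtp4 stood at 107.8 and 76.7 against 71.4 and 179.5. For all 5 genes the WT and KO values overlapped.

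In the CM fraction only Ifitm3 had a mean above 1000, with 1391 and 1015 CPM in the WT animals and 2144 and 984 in the KO animals. Ifi27l2a stood at 446 and 487 against 260.0 and 256, both KO values below both WT values. Xaf1 stood at 33.9 and 23.9 against 59.5 and 45.6, and Ifi35 at 26.5 and 21.1 against 71.3 and 32.9; for both the KO values lay above the WT values. Rsad2 stood at 27.8 and 45.0 against 52.3 and 21.9. Irf1, a transcription factor of the interferon response, stood at 38.96 and 10.2 against 62.5 and 11.5. For Rsad2 and Irf1 the genotypes overlapped.

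**Figure D1:**
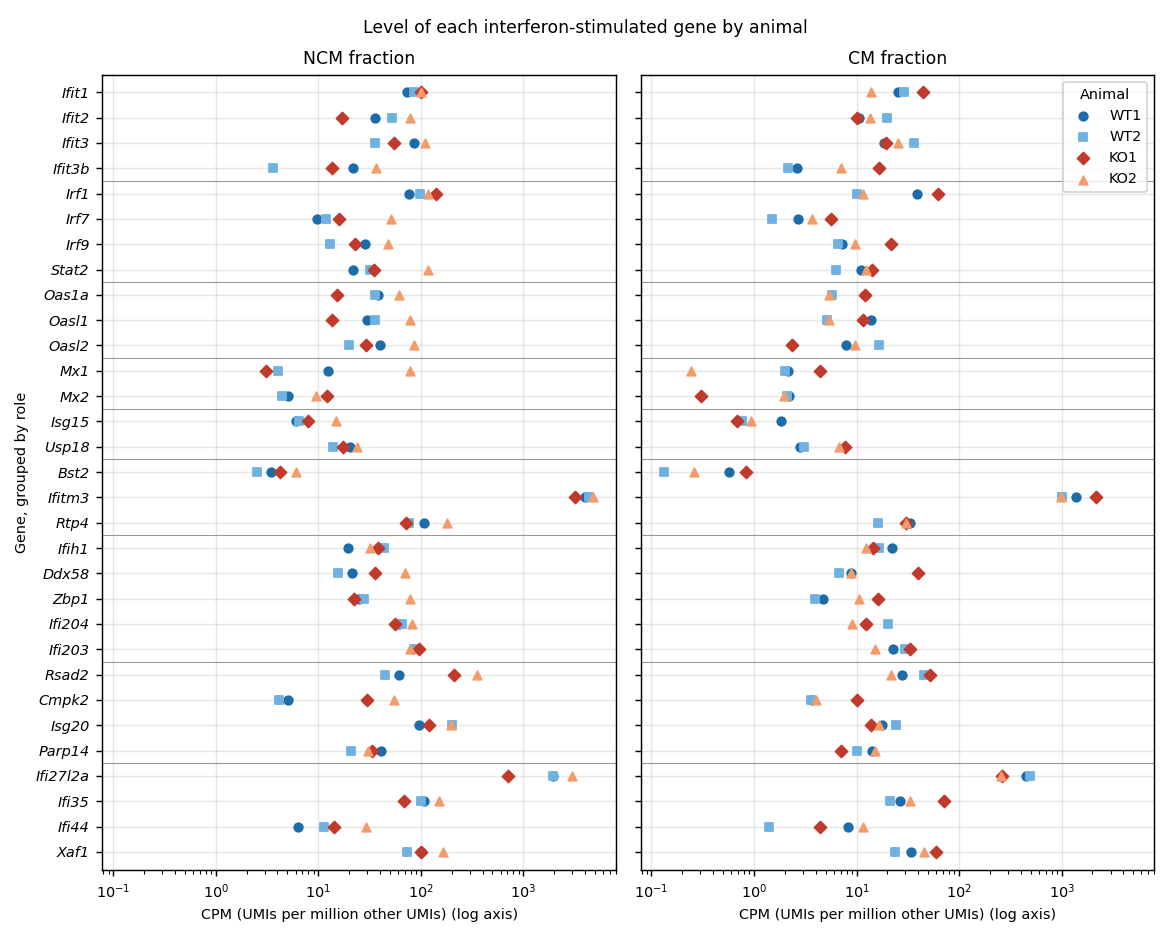
Level of each of the 31 genes in CPM (log axis), by animal, in the NCM and the CM fraction, with genes grouped by role. Ifitm3 and Ifi27l2a stand at the right of both panels, and in the NCM panel Rsad2 and Cmpk2 have both KO markers clear of both WT markers.

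Counts of single wells were uneven. Of 26154 pairs of a well and a gene with at least 1 UMI, the median pair had 5 UMIs. In 30.4% of the pairs there was 1 UMI, and in 41.9% there were 10 or more. Among 20 negative control wells, with a median of 128.5 UMIs in all, 14 UMIs of Ifit2, Ifitm3, Ifi203, Rsad2 and Ifi27l2a lay in 6 wells, so wells without a cell also held such UMIs, and a well with 1 UMI is not counted here as an expressing cell. No cell type that surely lacks these genes was at hand to set a background share.

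The first question was which of the genes differed between Mst1/2-deficient and wild-type hearts in non-cardiomyocytes. Rsad2 and Cmpk2 had the most separated levels. No gene passed the edgeR quasi-likelihood test at an adjusted p of 0.05 (0 of 31 here, 0% of 17216 genes tested), while DESeq2 called Rsad2 and Cmpk2 (background 3.65% of genes). At an unadjusted edgeR p below 0.05 stood Rsad2, Cmpk2 and Ddx58, 3 of 31, beside 12.1% of all genes. Both KO values lay above both WT values for 11 of the 31 genes (26.9% of all genes) and below them for 0 (18.3%), and for 20 the genotypes overlapped. The 11 were Ifit1, Irf1, Irf7, Stat2, Mx2, Isg15, Bst2, Ddx58, Rsad2, Cmpk2 and Ifi44.

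Rsad2 encodes viperin, a radical enzyme that turns CTP into a chain terminator of viral RNA synthesis. Its level was 61.5 and 44.9 CPM in the WT animals, against 211 and 356 in the KO animals. Both KO animals were thus well above both WT animals. The log2 difference, KO minus WT, was 2.27 ± 0.36 (SE, n = 2 animals per genotype; edgeR adjusted p = 0.267; DESeq2 adjusted p = 1.89e-06). At least 1 Rsad2 UMI was found in 165 of 692 and 149 of 703 WT wells and in 290 of 715 and 428 of 747 KO wells. With every well thinned to 5000 UMIs, which left out 0, 1, 18 and 11 shallower wells, the shares were 8.38 and 8.26% against 21.2 and 30.3%. The top well of an animal held 6.85 to 17.5% of its Rsad2 UMIs.

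Cmpk2, a mitochondrial kinase of pyrimidine nucleotides, stood at 5.06 and 4.15 CPM in the WT animals and at 29.8 and 54.8 in the KO animals. Again the genotypes did not overlap. Its log2 difference was 3.06 ± 0.50 (SE, n = 2; edgeR adjusted p = 0.267; DESeq2 adjusted p = 8.82e-08). Cmpk2 UMIs lay in 45 and 41 WT wells and in 111 and 154 KO wells, and 1 macrophage-like well held 52.8% of the Cmpk2 UMIs of KO2. With that well left out KO2 stood at 25.9, still above both WT animals, and with large wells thinned to 20000 UMIs the log2 difference was 2.12. Of the wells with Cmpk2, 14 of 45, 13 of 41, 49 of 111 and 91 of 154 in WT1, WT2, KO1 and KO2 also held Rsad2, beside 165 of 692, 149 of 703, 290 of 715 and 428 of 747 of all wells; well depth was not held fixed in these counts and their difference was not tested.

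Among sensors and signal genes the differences were smaller and leaned on KO2. Ddx58, which encodes the RNA sensor RIG-I, stood at 21.3 and 15.7 against 35.6 and 69.9 CPM, with UMIs in 67 to 117 wells of an animal (log2 difference 1.38 ± 0.46, edgeR adjusted p = 0.367). Irf7, the transcription factor that drives interferon alpha genes, stood at 9.77 and 11.9 against 15.8 and 51.0, in 123, 94, 75 and 180 wells (1.502 ± 0.63, edgeR adjusted p = 0.420). Stat2, the partner of Irf9, stood at 21.6 and 32.3 against 34.6 and 118.3, in 136, 131, 95 and 169 wells (1.38 ± 0.62, edgeR adjusted p = 0.432). KO1 was close to the higher WT animal for Irf7 and Stat2, and 1 well held 41.4% of the Stat2 UMIs of KO2. Ifi44 stood at 6.40 and 11.4 against 14.3 and 29.2, in 25, 27, 49 and 91 wells (1.15 ± 0.58, edgeR adjusted p = 0.475). Without KO2 the log2 differences of Ddx58, Irf7, Stat2 and Ifi44 were 0.71, 0.31, 0.12 and 0.44, while those of Rsad2 and Cmpk2 were 1.75 and 2.46.

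The IFIT proteins bind foreign RNA, and none of the 4 reached a log2 difference of 1 in NCM wells. Ifit1 stood at 73.2 and 86.3 against 101.2 and 100.97 CPM. Ifit3 stood at 85.2 and 35.6 against 55.1 and 109.1, and Ifit3b at 21.6 and 3.58 against 13.7 and 36.5; the genotypes overlapped for both. Ifit3 and Ifit3b are near-identical copies, so the split of counts between them is uncertain.

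The members of the oligoadenylate synthetase family (Oas1a, Oasl1, Oasl2), which answer double-stranded RNA, overlapped between genotypes, as did Usp18, the protease that removes the ubiquitin-like modifier Isg15. Isg15 itself stood at 6.13 and 6.51 against 7.86 and 14.98 CPM. The antiviral GTPase Mx1 stood at 12.4 and 4.06 against 3.06 and 78.4, and 82.4% of the KO2 value came from 1 macrophage-like well; many inbred mouse strains, C57BL/6 among them, carry defective Mx1 alleles. Mx2, its paralogue, stood at 5.09 and 4.38 against 12.2 and 9.44.

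Irf1 in NCM wells stood at 76.2 and 98.1 against 142.2 and 116.3 CPM, and Bst2 (tetherin, which holds budding virus at the cell surface) at 3.42 and 2.53 against 4.20 and 6.02. Both KO values were above both WT values for Irf1 and Bst2, with log2 differences of 0.40 ± 0.26 and 0.64 ± 0.71. The remaining genes, Ifit2, Irf9, Oas1a, Oasl1, Oasl2, Usp18, Ifih1, Zbp1, Ifi204, Ifi203, Parp14 and Ifi35, had overlapping values, all between 13.0 and 151.7 CPM.

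The median log2 difference was 0.40 over the 31 genes and -0.01 over all genes tested, and without KO2 the median over the 31 genes was -0.10. KO2 was the highest animal for 24 of the 31 genes. Summed over the list, levels were 7166 and 7555 CPM in the WT animals and 5285 and 10250.5 in the KO animals, so KO1 was the lowest and KO2 the highest. Without Ifitm3 and Ifi27l2a, which made up most of the sum, they were 1243 and 1225 against 1401 and 2518, with both KO animals above both WT animals. With Rsad2 and Cmpk2 also left out, a choice made after their values were seen, they were 1176.4 and 1175.5 against 1160.3 and 2107, so KO1 then lay below both WT animals. In sums over wells, fewer cells of a type and less RNA per cell cannot be told apart.

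Mitochondrial share, which differed between the genotypes, was not the same in all wells, and levels are given by its range. In NCM wells with under 30% mitochondrial UMIs, Rsad2 stood at 60.9 and 44.3 CPM in the WT animals (645 and 570 wells), at 58.5 in KO1 (18 wells) and at 466 in KO2 (160 wells). Between 30 and 50% it stood at 113.3 and 69.7 against 234 and 268, and at 50% or more at 79.9 and 3.17 (19 and 21 wells) against 229.6 and 256. KO1 lay inside the WT values in the lowest range, where it had few wells, and above them in the other ranges. Cmpk2 stood at 5.13 and 4.31 against 13.7 and 97.1 in the lowest range, and at 1.18 and 0.58 against 18.3 and 13.9 in the middle one.

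A cluster of 179 NCM wells led by red cell genes (among them Bpgm and Alas2) held 3 wells of each WT animal and 55 and 118 wells of KO1 and KO2. Rsad2 was at 1109 and 632 CPM there in KO1 and KO2, and Isg20 at 664 and 747. In the 3 wells of WT1 and of WT2, Rsad2 was at 39.9 and 475.5, with UMIs in 1 well of each animal, and Isg20 was at 5298 and 4260, above both KO values. In all other NCM wells Rsad2 stood at 61.6 and 42.4 against 148.5 and 322, and Cmpk2 at 5.06 and 4.16 against 31.6 and 61.2. Both KO animals thus stayed above both WT animals without these wells. The edgeR log2 difference of Rsad2 was 2.06 without them (adjusted p = 0.371), an alternative chosen after the data were seen. Isg20 in the other wells stood at 81.3 and 175.7 against 82.0 and 126.5.

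**Figure D2:**
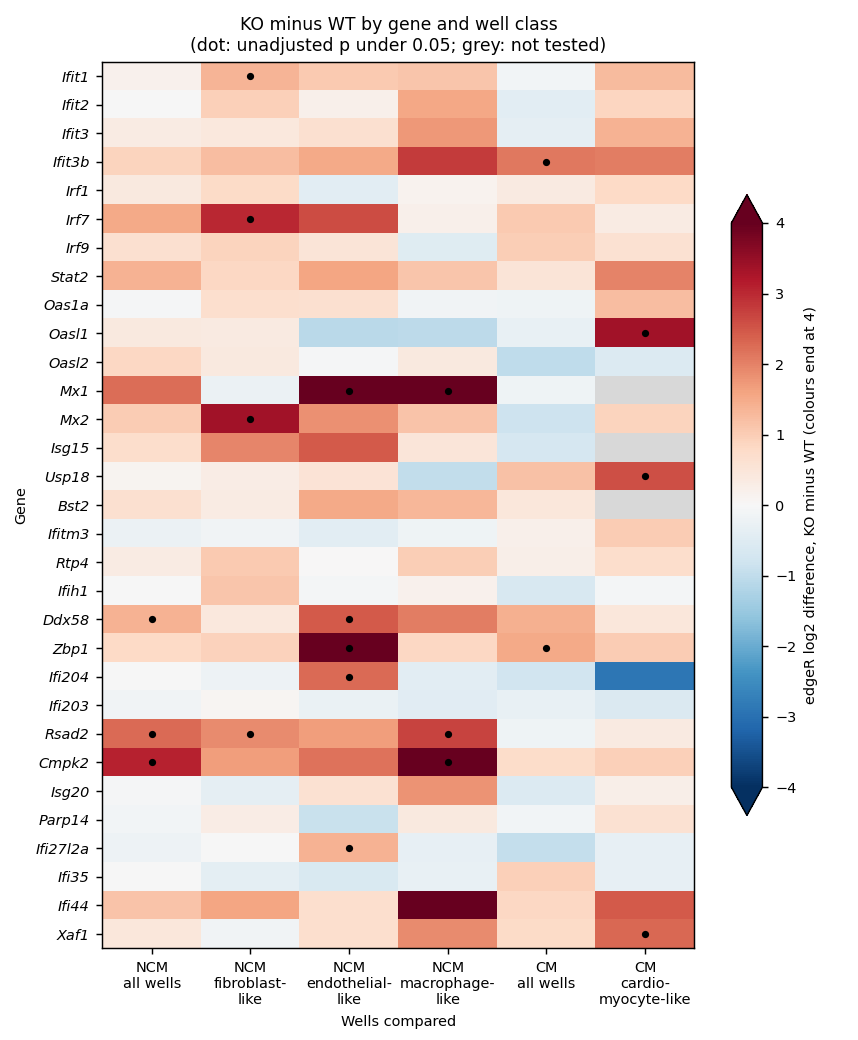
edgeR log2 difference, KO minus WT, for each gene (rows) in all NCM wells, 3 NCM classes, all CM wells and cardiomyocyte-like CM wells (columns), with a dot where the unadjusted p was under 0.05 and grey where a gene was not tested. Rsad2 and Cmpk2 are positive in every NCM column, and no dot passed the adjusted threshold.

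Wells were next divided into classes from fixed markers by clustering that left the 31 genes and other interferon genes out; the classes are rebuilt here and end in -like. Fibroblast-like NCM wells numbered 159, 123, 97 and 129, endothelial-like 65, 154, 261 and 129, and macrophage-like 103, 90, 44 and 46 in WT1, WT2, KO1 and KO2. Mitochondrial shares were 4.998, 6.29, 41.9 and 27.7% in the fibroblast-like, 11.0, 12.9, 63.7 and 42.6% in the endothelial-like, and 3.93, 5.53, 45.0 and 23.8% in the macrophage-like wells, higher in both KO animals in each class, and their part was not tested. In fibroblast-like wells 0 of 31 genes passed the edgeR test (0% of 14288 genes), DESeq2 called Irf7, Mx2 and Rsad2 (background 2.98%), and 4 had an unadjusted edgeR p below 0.05 (10.3%). Both KO values were above both WT values for 11 genes (24.6%) and below for 0 (18.6%). Irf7 stood at 4.29 and 2.16 against 19.5 and 38.5 CPM, in 39, 25, 12 and 37 wells, a log2 difference of 3.02 ± 0.81 (SE, n = 2; edgeR adjusted p = 0.425). A single well held 73 Irf7 UMIs of KO1, most of its Irf7 UMIs in this class. Rsad2 stood at 23.5 and 17.5 against 51.8 and 115.1, in 39, 26, 41 and 77 wells (1.88 ± 0.54, edgeR adjusted p = 0.425). Neither gene overlapped between genotypes. Without KO2 the log2 difference of Rsad2 was 1.08.

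Ifit1, at 35.4 and 26.8 against 84.5 and 93.7, and the RNA sensor Ifih1 (MDA5), at 11.5 and 9.97 against 27.7 and 24.4, also had separate values in fibroblast-like wells. Marker sums of other cell types are not given for these wells, and the part of RNA from other cells was not tested. Mx2 had a mean below 10 CPM and 84.5% of its KO1 UMIs in 1 well. The median log2 difference of the 31 genes was 0.68 there beside 0.00 over all genes, and -0.12 without KO2.

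In endothelial-like wells 0 of 31 passed the edgeR test (0% of 12367 genes), DESeq2 called Mx1 and Zbp1 (background 2.34%), and 5 had an unadjusted edgeR p below 0.05 (8.71%). Both KO values were above both WT values for 14 genes (24.9%) and below for 2 (16.2%). Zbp1, a sensor of Z-form nucleic acid that can trigger cell death, stood at 0.62 and 1.79 against 18.7 and 88.6 CPM. Its UMIs came from 3, 8, 13 and 19 wells, and 1 well gave 80.7% of those of KO2. The log2 difference was 5.33 ± 1.27 (SE, n = 2; edgeR adjusted p = 0.513). Mx1 rested on 2 UMIs in WT1 and 0 in WT2, so no fold is given; KO1 had 13 UMIs in 7 wells and KO2 461 in 3 wells, 99.3% of them in 1. Ddx58 stood at 38.7 and 21.5 against 58.3 and 291, with 64.5% of the KO2 UMIs in 1 well.

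The other endothelial-like values that did not overlap and reached a log2 difference of 1 were those of Ifit1, Irf7, Stat2, Isg15, Ifi204, Rsad2, Cmpk2 and Ifi27l2a. Ifi204, a DNA-binding protein of the HIN-200 family, stood at 12.7 and 12.5 against 34.7 and 94.5. Ifi27l2a stood at 344 and 329 against 460.3 and 1410.4, in nearly all wells of each animal. Rsad2 stood at 197.8 and 52.5 against 203 and 640.0, so KO1 and WT1 were nearly level. A single endothelial-like well held 3355 Rsad2 UMIs of KO2, 17.5% of those in all its NCM wells. That well gave most of the KO2 value in this class, so the place of KO2 above WT1 leaned on it. The differences in endothelial-like wells also moved with single animals. Over the removals of 1 animal the lowest log2 difference was 0.21 for Ifi27l2a (1.39 with all animals), 0.40 for Isg15 (2.45), 0.45 for Rsad2 (1.66), 0.71 for Ddx58 (2.46) and 1.22 for Ifi204 (2.26), each without KO2. It was 0.93 for Cmpk2 without KO1 (2.16) and 0.95 for Stat2 without WT1 (1.58). The endothelial markers summed to 1.78 and 1.96% of UMIs in these wells of the WT animals and to 1.24 and 0.957% in those of the KO animals, and their part was not tested. The median log2 difference was 0.67 over the 31 genes and -0.01 over all genes, and 0.09 without KO2.

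In macrophage-like wells 0 of 31 passed the edgeR test (0% of 12133 genes), DESeq2 called Cmpk2 and Rsad2 (background 3.76%), and 3 had an unadjusted edgeR p below 0.05 (9.57%). Both KO values were above both WT values for 6 genes (20.5%) and below for 1 (20.6%). Rsad2 stood at 93.3 and 67.9 against 253 and 848 CPM, in 45, 36, 21 and 34 wells (log2 difference 2.69 ± 0.68, SE, n = 2; edgeR adjusted p = 0.485). Cmpk2 stood at 1.32 and 3.74 against 38.1 and 381, in 5, 10, 13 and 17 wells (6.28 ± 1.39, edgeR adjusted p = 0.485). Both genes had separate values, and 65.7% of the KO2 Cmpk2 UMIs came from 1 well; with large wells thinned the Cmpk2 difference was 3.41. Ifit1 stood at 78.6 and 177.5 against 258 and 357. Isg20 stood at 38.1 and 27.2 against 40.8 and 198.6, with KO1 next to WT1. Without KO2 the log2 differences of Rsad2, Cmpk2 and Isg20 were 1.396, 3.61 and 0.07 (1.81 for Isg20 with all animals), and that of Ifit1 was 0.72, and 0.58 without WT1 (1.12 with all animals).

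The macrophage-like median log2 difference was 0.83 over the 31 genes, -0.05 over all genes, and -0.72 over the 31 genes without KO2. The 10 macrophage markers, all detected in every animal, summed to 3.35 and 3.70% of UMIs in the macrophage-like wells of the WT animals and to 1.84 and 1.84% in those of the KO animals. The 10 endothelial markers summed to 0.0359 and 0.0471% against 0.324 and 0.198%, and the 10 fibroblast markers to 0.116 and 0.114% against 0.171 and 0.286%, none of them at 0. Their part in the genotype values was not tested.

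Neutrophil-like wells (67, 37, 26 and 17) were too few in KO2 for a test. Rsad2 stood there at 35.7 and 25.6 against 276 and 116.6 CPM, in 7, 7, 14 and 7 wells, and Cmpk2 at 1.20 and 0.32 against 34.3 and 44.5. In endocardial-like wells (20, 22, 11 and 20) Rsad2 stood at 2.31 and 5.87 against 189 and 57.3. In the largest unnamed NCM cluster, of 183, 170, 166 and 252 wells, Rsad2 stood at 154.2 and 44.6 against 82.1 and 204.5 and Cmpk2 at 20.1 and 0.55 against 51.9 and 17.2, and the genotypes overlapped for both.

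**Figure D3:**
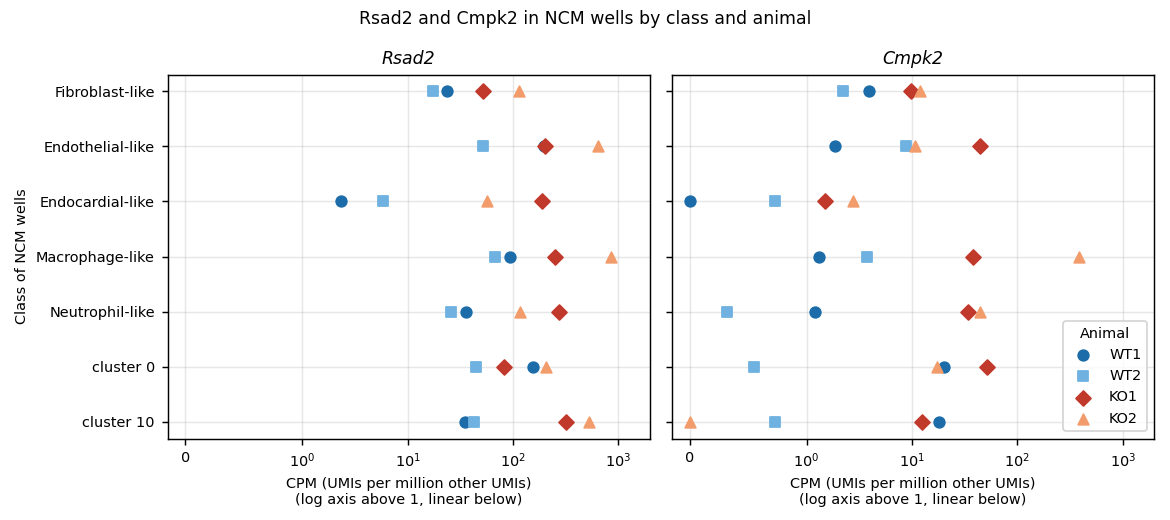
Rsad2 (left) and Cmpk2 (right) in CPM (log axis above 1, linear below), by NCM class (rows) and animal (markers). Rsad2 has both KO markers above both WT markers in all rows but cluster 0, by a small margin in endothelial-like wells (203 against 197.8). In the endothelial-like row a single well gave most of the KO2 value.

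The same question was put to the CM fraction, where no gene of the list was called. None of the 31 passed the edgeR test (0 genes, 0% of 14462), DESeq2 called 0 (background 0.332%), and Ifit3b and Zbp1 had an unadjusted edgeR p below 0.05 (3.44% of genes). Both KO values lay above both WT values for 9 genes (15.8%) and below for 4 (12.7%). Ifit3b stood at 2.62 and 2.15 against 16.5 and 7.11 CPM, with 61.3% of the KO1 UMIs in 1 well. Zbp1 stood at 4.68 and 3.98 against 16.1 and 10.7, in 8, 11, 11 and 24 wells. Both genes had separate values but a mean below 10. Cmpk2 stood at 3.71 and 3.58 against 10.1 and 3.99.

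KO1 was the highest animal for 18 of the 31 genes in the CM fraction, where KO2 was the highest for 2. The median log2 difference was -0.11, beside 0.01 over all genes, and it changed sign without WT1 (0.32), without WT2 (0.08) and without KO2 (0.13). Summed levels were 2234 and 1872 against 3004 and 1602 CPM. KO1 had fewer cardiomyocyte-like wells among its CM wells (50.8%) than WT2 (70.1%) and KO2 (69.9%), with WT1 at 55.2%, and more endothelial-like wells (28.0%, against 14.8, 10.2 and 19.5% in WT1, WT2 and KO2). Their part in the genotype values was not tested.

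Of the CM classes only cardiomyocyte-like wells (116, 192, 134 and 269) were tested between genotypes, and 28 genes could be tested there. None passed the edgeR test (0 genes, 0% of 12477), DESeq2 called Xaf1 (background 0.681%), and Oasl1, Usp18 and Xaf1 had an unadjusted edgeR p below 0.05 (4.86%). Both KO values lay above both WT values for 11 genes (20.3%) and below for 2 (16.1%). Xaf1 stood at 7.36 and 8.05 against 50.1 and 35.4 CPM, in 8, 16, 8 and 53 wells (log2 difference 2.30 ± 0.54, SE, n = 2; edgeR adjusted p = 0.924; DESeq2 adjusted p = 0.0409). The genotypes were well apart, although 1 well gave 66.8% of the KO1 UMIs. Ifitm3 stood at 292 and 313 against 1035 and 383, in 80, 142, 95 and 251 wells, a log2 difference of 1.01 ± 0.44 that was 0.35 without KO1. The median log2 difference was 0.83 over the 28 genes and 0.01 over all genes tested; it was 0.38 without WT1 and 2.09 without WT2, 1.07 without KO1 and 0.61 without KO2.

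The 10 cardiomyocyte markers summed to 7.99 and 8.84% of UMIs in the cardiomyocyte-like wells of the WT animals and to 5.47 and 7.73% in those of KO1 and KO2. The 10 endothelial markers summed to 0.0399, 0.0502, 0.122 and 0.0456% in WT1, WT2, KO1 and KO2, and the 10 macrophage markers to 0.135, 0.0641, 0.199 and 0.0277%. KO1, the highest animal for Ifitm3, was thus the lowest in cardiomyocyte markers and the highest in both other sets; their part was not tested.

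Whether the genotype difference itself differed between fractions was tested over the 8 sums with fraction and its interaction with genotype. The animal was a block, which takes up the genotype term. No gene of the 31 passed the edgeR test (0 genes, 0% of 17509), DESeq2 called 0 (background 0.767%), and Rsad2 and Cmpk2 had an unadjusted edgeR p below 0.05 (4.95%). For Rsad2 the difference in NCM wells exceeded that in CM wells by 2.35 ± 0.72 on the log2 scale (edgeR adjusted p = 0.951), and for Cmpk2 by 2.25 ± 0.88 (edgeR adjusted p = 0.951). The median over the 31 genes was 0.12, beside 0.02 over all genes, and -0.59 without KO2.

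The comparison of fractions within animals showed the genes lower in the CM fraction, each fraction of a genotype being on a chip of its own. Of the 31, 13 fell and 0 rose in CM against NCM wells by the edgeR test at an adjusted p of 0.05, where 5.92% of 17509 genes fell and 8.33% rose. The 13 were Irf1, Irf7, Stat2, Isg15, Ifitm3, Rtp4, Zbp1, Ifi204, Ifi203, Ifit1, Isg20, Ifi27l2a and Xaf1. All 31 log2 differences were negative, with a median of -1.41 beside -0.28 over all genes; with library totals in place of TMM factors these medians were -1.94 and -0.81. Isg20 had log2 -2.51 ± 0.26 (SE, 4 animals; edgeR adjusted p = 4.25e-04), and its levels of 95.2, 199.7, 119.7 and 194.8 CPM in NCM wells faced 17.5, 24.3, 13.8 and 16.5 in CM wells. Ifi204 had -1.81 ± 0.31 (edgeR adjusted p = 0.00512), from 61.7, 64.9, 55.7 and 82.0 to 12.3, 20.3, 12.3 and 9.12. For both genes every animal was lower in its CM wells. Levels summed over the list were also lower in CM wells of every animal within 3 classes. Endothelial-like wells stood at 7062, 7008, 5185 and 9713 CPM in the NCM and 3241, 2007, 3886 and 3220 in the CM fraction. Fibroblast-like wells stood at 8312, 8268, 6362 and 11641 against 4033, 4280, 4338 and 5202. Macrophage-like wells stood at 6796, 8356, 3519 and 13964 against 2874, 6332, 3306 and 4782. The part of class make-up was not tested.

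Irf7 had -2.01 ± 0.47 and Isg15 -2.55 ± 0.65, both with low levels in CM wells (1.49 to 5.64 and 0.69 to 1.85 CPM). Ifitm3 was lower by 1.09 ± 0.29 on the log2 scale (edgeR adjusted p = 0.0358), and every animal had a lower level in its CM wells. Rsad2 did not pass (log2 -1.25 ± 0.55, edgeR adjusted p = 0.166), nor did Cmpk2 (-0.94 ± 0.60, edgeR adjusted p = 0.334). The count of 13 leaned on single animals: without WT1, WT2, KO1 and KO2 it was 5, 8, 14 and 4.

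**Figure D4:**
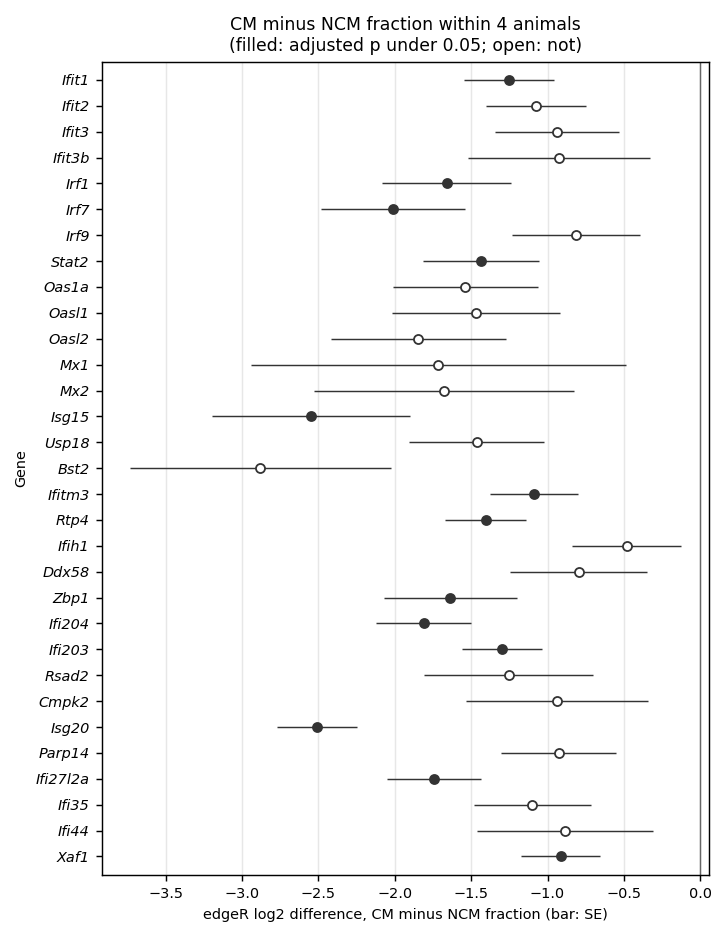
edgeR log2 difference, CM minus NCM fraction within 4 animals, for each gene (points) with its SE (bars), filled where the adjusted p was under 0.05. All 31 points lie below 0 and 13 are filled, with Isg20 at -2.51.

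Between NCM classes the same test, with the animal as a block, showed several genes higher in macrophage-like than in fibroblast-like wells. Against fibroblast-like wells 6 of 31 rose (4.53% of 15220 genes) and 0 fell (4.93%). They were Rsad2 (log2 2.59 ± 0.32, edgeR adjusted p = 5.22e-04), Oasl1 (3.69 ± 0.61), Ifit1 (2.20 ± 0.34), Rtp4 (2.04 ± 0.43), Parp14 (2.44 ± 0.56) and Ifih1 (2.12 ± 0.52). Oasl1, which represses translation of Irf7, stood at 99.4, 71.8, 10.01 and 75.0 CPM in the macrophage-like and at 5.45, 3.27, 3.19 and 9.18 in the fibroblast-like wells of WT1, WT2, KO1 and KO2. Every animal had the higher Oasl1 value in its macrophage-like wells.

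Parp14, an enzyme that attaches ADP-ribose to proteins, stood at 76.1, 19.0, 47.3 and 85.5 against 12.4, 8.53, 18.2 and 10.7, again higher in every animal. Without WT1, WT2, KO1 and KO2 the count of 6 was 4, 5, 6 and 4.

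Endothelial-like against fibroblast-like wells showed Rsad2 higher (log2 2.19 ± 0.32, edgeR adjusted p = 0.00514), 1 of 31 beside 1.58% of genes, and Ifi27l2a lower (-2.02 ± 0.44, edgeR adjusted p = 0.0317), 1 of 31 beside 1.95%. Ifi27l2a stood at 344, 329, 460.3 and 1410.4 CPM in endothelial-like wells and at 2222, 2202, 1111 and 3702 in fibroblast-like wells. The Ifi27l2a call was lost without WT1, WT2 or KO2, leaving Rsad2 alone. Macrophage-like against endothelial-like wells had 3 of 31 higher (3.31%), Ifit1, Oasl1 and Ifi27l2a, and 0 lower (2.77%). Only Ifit1 (log2 2.43 ± 0.34, edgeR adjusted p = 0.00208) passed under every removal of 1 animal. The count was 1 without WT1 or WT2.

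Counting genes per well gave another view. With wells thinned to 5000 UMIs, 66.6% (95% exact binomial interval 63.0 to 70.1) of WT1 and 59.4% (55.7 to 63.1) of WT2 NCM wells held at least 3 of the 31 genes, against 73.0% (69.6 to 76.3) of KO1 and 92.7% (90.5 to 94.4) of KO2 wells. The intervals cover counting error only. KO2 stood far from the other 3 animals. The KO animals exceeded the WT animals by 19.8 percentage points on average, with a two-sided exact permutation p of 0.33, the smallest that 2 against 2 animals allow. Without thinning the shares were 96.2, 95.2, 96.4 and 99.6%. In CM wells the thinned shares were 30.5 and 20.5% against 22.3 and 27.3% (exact permutation p = 1).

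**Figure D5:**
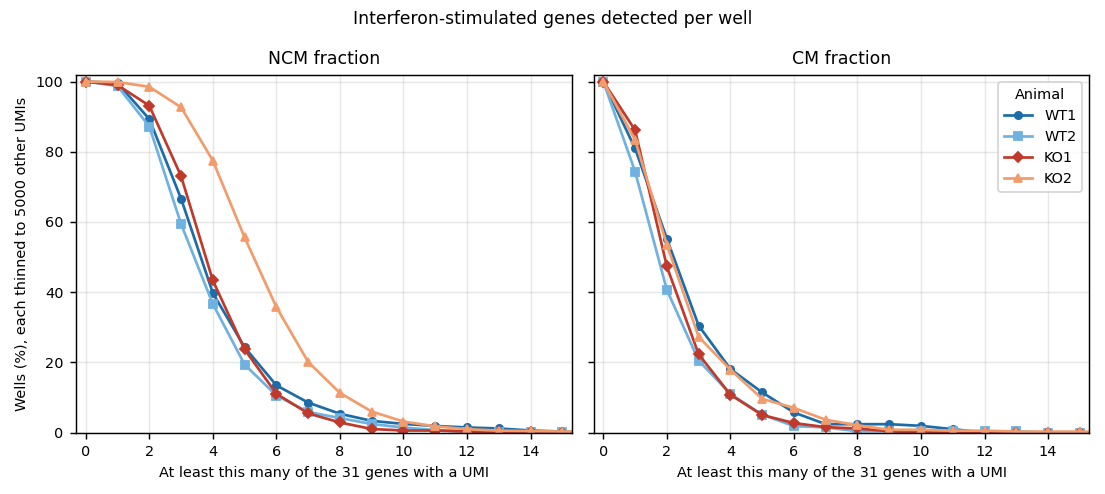
Percent of wells (each thinned to 5000 other UMIs) that hold at least a given number of the 31 genes, by animal, in the NCM and the CM fraction. In the NCM panel KO2 runs above the other 3 animals (92.7% at 3 genes, against 59.4 to 73.0%), and in the CM panel the 4 lines run close together.

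Thinned shares by class kept the place of KO2. At least 3 genes were found in 69.8, 69.1, 69.1 and 92.2% of fibroblast-like NCM wells of WT1, WT2, KO1 and KO2, and in 89.3, 78.9, 74.4 and 100% of macrophage-like wells. KO1 was within or below the WT values in both of these classes, and KO2 above them. In endothelial-like wells the shares were 66.2, 55.8, 77.6 and 95.3%, and in neutrophil-like wells 53.7, 59.5, 73.1 and 100%. The largest unnamed cluster had 59.0, 45.0, 64.8 and 90.3%, and a smaller one (28, 44, 14 and 11 wells) 39.3, 65.9, 92.9 and 100%. Both KO animals lay above both WT animals in each of these. In endocardial-like wells (80, 72.7, 63.6 and 90%) KO1 lay below both WT animals. In cardiomyocyte-like CM wells the shares were 6.03, 6.28, 5.38 and 12.3%. Rsad2 was found in 2.52, 3.25, 7.22 and 23.3% of thinned fibroblast-like wells, and in 15.5, 15.6, 27.9 and 47.8% of macrophage-like wells, both KO animals being above both WT animals in each class. In cardiomyocyte-like CM wells Rsad2 was found in 0.86, 1.57, 2.31 and 2.23%.

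Other genes of the pathway were followed from lists of ligands, receptors, signal carriers, sensors, brakes and further induced genes. No gene of any list passed the edgeR test between genotypes in either fraction or in the tested classes. Among ligands 2 of 10 could be tested in NCM wells, Ifnb1 and Ifng, and both had an unadjusted edgeR p below 0.05 (12.1% of all genes). Ifnb1, interferon beta, stood at 27.8 and 20.1 against 13.9 and 8.98 CPM in NCM wells, in 74, 42, 37 and 34 wells (log2 -1.24 ± 0.43, edgeR adjusted p = 0.379). Over all NCM wells both KO values of Ifnb1 thus lay below both WT values, and those of Ifng above (18.3 and 26.9% of all genes). In each tested NCM class 1 ligand could be tested. Its KO values lay above in endothelial-like wells (24.9%), below in macrophage-like wells (20.6%), and overlapped with WT in fibroblast-like wells. A link to the levels of Rsad2 and Cmpk2 was not tested. Ifng, interferon gamma, was found in 1, 0, 8 and 3 NCM wells of the animals in turn. In CM wells Ifnb1 stood at 6.48 and 3.61 against 0.69 and 0.57. None of the 6 receptor genes had an unadjusted edgeR p below 0.05 in NCM wells, and 1 of the 6, with 0 below, had both KO values above both WT values (26.9% of all genes above, 18.3% below). In macrophage-like wells 0 of 5 receptor genes tested lay above and 2 below (20.5 and 20.6% of all genes). Ifnar1 stood there at 85.6 and 98.9 against 57.0 and 23.1, and Ifngr2 at 48.7 and 82.8 against 33.5 and 31.5.

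Among 10 signal carriers 2 had an unadjusted edgeR p below 0.05 in NCM wells, beside 12.1% of all genes. Irf8, a transcription factor of myeloid cells, stood at 17.3 and 15.6 against 76.9 and 60.4 CPM (log2 1.89 ± 0.30, edgeR adjusted p = 0.267). Jak2 stood at 22.4 and 35.0 against 84.7 and 69.7 (1.26 ± 0.33, edgeR adjusted p = 0.339). Both genes had separate values. Of 11 sensors and adaptors 4 had both KO values above both WT values and 2 had them below, beside 26.9% and 18.3% of all genes, with the RNA receptor Tlr7 at 29.98 and 29.7 against 21.9 and 10.3. Of 7 brakes 4 lay above and 2 below (the same 26.9% and 18.3% of all genes), with Adar, an enzyme that edits double-stranded RNA, at 9.76 and 11.9 against 24.7 and 24.1.

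Of 28 further type I-induced genes tested in NCM wells, 11 lay above and 5 below, beside 26.9% and 18.3% of all genes, with a median log2 difference of 0.33 (-0.01 over all genes). Trim21, an antibody receptor inside cells, stood at 1.44 and 3.10 against 12.4 and 44.8 CPM. Ifitm1, a relative of Ifitm3, stood at 226 and 402 against 144.6 and 146.3, and Ifi205, a relative of Ifi204, at 287 and 330.2 against 163 and 178. These 2 genes lay lower in both KO animals, although in macrophage-like wells Ifitm1 stood at 48.2 and 23.4 against 154.7 and 143.0, higher in both. Of 20 genes of the interferon gamma list 8 lay above and 1 below, beside the same 26.9% and 18.3%, among them the guanylate-binding proteins Gbp2, at 30.7 and 36.6 against 92.3 and 97.1, and Gbp7, at 54.0 and 57.1 against 139.0 and 114.2. In macrophage-like wells 7 of 20 genes of this list lay above and 6 below (20.5 and 20.6% of all genes). Gbp7 stood there at 67.5 and 53.9 against 246 and 419.8, while the immunoproteasome subunits Psmb9, at 91.5 and 131.9 against 43.9 and 59.9, and Psmb10, at 198.3 and 270.6 against 68.5 and 152.1, were lower in both KO animals. In endothelial-like wells 1 of 18 lay above and 6 below (24.9 and 16.2% of all genes), with the GTPase Tgtp2 at 136.5 and 313 against 42.0 and 118.9 and Gbp4 at 44.3 and 73.1 against 22.2 and 34.2.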

How the data were processed

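The deposited values are UMI counts per gene and well, from the authors' 4 count tables; per-well reports by the authors name the animal and fraction. In every well the gene total equalled the report's number of gene and UMI pairs. The tools in the submitters' processing notes are STAR 2.5.2b, Subread 1.4.6-p1 with featureCounts, and the build mm10; no source used here gives the strand setting, annotation release or UMI rule, so overlapping and antisense genes cannot be told apart. Spike-ins (4.5e-05% of UMIs) and control wells were left out. Of 4275 wells of animals, 3990 were kept, with 84733290 and 93816921 UMIs outside mitochondrial and haemoglobin genes in NCM wells of WT1 and WT2, 26447307 and 54008036 in those of KO1 and KO2, and 13126144 to 58208202 per animal in CM wells. Library pairs shared 60 to 400 well barcodes. Scrublet marked 3 to 13 wells per library as doublets; these were left in, except in an alternative.

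Wells were clustered in scanpy 1.11.5 (10000 UMIs per well, 2000 variable genes, 30 components, 15 neighbours, Leiden resolution 1.0) without the 31 genes and the pathway lists. A cluster took a name from at least 3 fixed markers among 30 leading genes. Counts were summed per animal and class (at least 20 wells per sum), filtered with filterByExpr and tested with the quasi-likelihood test of edgeR 4.0.16 (TMM, Benjamini-Hochberg over all genes, threshold 0.05); DESeq2 1.42.0 was the other tool. The labels do not say how the animals were related. In comparisons of genotypes p-values measure the spread between 2 animals per genotype. In comparisons of fractions or classes, and in the interaction, the animal was a block and p-values rest on differences within animals. The test was also run on simulated counts with a single fixed dispersion, without a chip effect or dominant wells. That run cannot show how the test behaves on data that hold these. Genes were described when called, or when both KO values lay on 1 side of both WT values with a log2 difference of at least 1 and a mean of at least 10 CPM, besides the 6 highest per fraction and Ifit3 with Ifit3b; pathway genes by the same rule. The genes and lists were chosen with earlier results of these data known.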

Additional observations from a re-analysis of the deposited data

How the results depend on the processing

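No alternative reversed the log2 difference, KO minus WT, of a gene described for separate values and a difference of at least 1, and no gene of the 31 passed the edgeR test between genotypes with other size factors, library totals, mitochondrial and haemoglobin genes kept, deeper wells, doublets removed, large wells thinned, or each gene's top well left out. Library totals in place of TMM factors shifted the median of all genes by 0.16 in the NCM and 0.12 in the CM comparison (log2), and in CM wells the median of the 31 genes was then 0.15; it was 0.57 with wells thinned to 20000 UMIs and 0.30 without top wells. DESeq2 called 2 genes in all NCM wells, and 3 among fibroblast-like, 2 among endothelial-like, 2 among macrophage-like and 1 among cardiomyocyte-like wells. Without the filter on low counts edgeR called 2 in all NCM wells, 5 for endothelial-like and 3 for macrophage-like wells. The cause was not tested. Leaving out 1 animal gave 0 to 1 calls in cardiomyocyte-like wells (Ifitm3, without KO2) and 0 in the other genotype comparisons.

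Among the genes described for their level or as near-copies, most with overlapping genotypes, signs did turn. In NCM wells the log2 difference of Isg20 was 0.093 with library totals, 0.87 with thinned wells and 0.22 without top wells, and that of Ifi27l2a was 0.026 with thinned wells. In CM wells Rsad2 had 0.026, 0.30 and 0.0027 under the same 3 settings, and Ifit3 had 0.94 with thinned wells and 0.28 without top wells. Leaving out 1 animal gave, in NCM wells, -1.69 to 0.53 for Ifi27l2a, -0.36 to 1.04 for Ifit3, -0.099 to 2.66 for Ifit3b, -0.63 to 0.11 for Ifitm3, -0.54 to 0.60 for Isg20, -0.60 to 0.88 for Rtp4 and -0.033 to 0.84 for Xaf1. In CM wells it gave -0.88 to 0.32 for Ifit3, -0.11 to 0.48 for Ifitm3, -0.88 to 1.44 for Irf1 and -0.60 to 0.31 for Rsad2.

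For CM against NCM the count of 13 was 22 with library totals, 20 with DESeq2, 21 without the filter, 21 with thinned wells and 21 without top wells, and 4 to 14 when 1 animal was left out. For endothelial-like against fibroblast-like wells the count of 2 was 6 with DESeq2, 4 with thinned wells, 4 without top wells and 1 to 2 without 1 animal. For macrophage-like against endothelial-like wells the count of 3 was 7 with DESeq2, 7 without the filter, 5 with thinned wells, 6 without top wells and 1 to 3 without 1 animal. In CM wells the share with at least 3 genes, KO minus WT, was -0.70 percentage points; it was 4.92 without thinning and 0.40 in wells of at least 20000 UMIs.

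Animal numbers pair no animals by any label; with that number as a replicate block 0 of the 31 genes passed in each genotype comparison. Wells under 30% mitochondrial UMIs could not be tested for NCM genotype comparisons, since KO1 had 18 such wells. Leaving out the cluster led by red cell genes was chosen after seeing the data. With 2 animals per genotype, and chip tied to genotype and to fraction, these data cannot part either from the chip.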
